A study of Mus musculus with 18 samples.

Results

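Lin28a, Lin28b, Trim71, Nr6a1, Hmga2, Igf2bp1, Igf2bp2 and Igf2bp3 are 8 genes of the circuit around the RNA-binding protein LIN28 and the let-7 microRNAs. They were taken by their symbols from a table of 23337 genes, and all 8 were among the 13116 genes with enough counts to be tested. Their mRNA was measured by sequencing of poly(A) RNA in mouse embryonic stem cells that were turned into heart cells in culture. Every sample was of the TBX5-FTA line in the A2Lox.cre background, left untreated, so no sample carried a perturbation and each comparison set a later harvest against an earlier one. Harvests on days 5, 6 and 7 (D5, D6 and D7) were labelled cardiac progenitor cells, and those on days 8, 10 and 15 (D8, D10 and D15) immature cardiomyocytes, with 3 libraries a day and 18 in all. The title of the series concerns Hedgehog signalling and a heterochronic network that controls when cells differentiate, and the comparisons below show when each of the 8 mRNAs changed. Nothing in the labels ties the libraries of a day to separate cultures, so p-values measure how far these libraries spread, and that spread may be technical.

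Heterochronic genes set the order and timing of developmental steps, and lin-28, let-7 and lin-41 were first found as such genes in the worm Caenorhabditis elegans. LIN28A and LIN28B bind precursors of let-7 and block their maturation, while mature let-7 pairs with the mRNAs of Lin28a and Lin28b and lowers their output, so that each side holds the other down. Stem cells and early embryos are known for abundant LIN28 and little mature let-7, and maturing tissues for the opposite. The other members are known let-7 targets: the chromatin protein HMGA2, the ubiquitin ligase and RNA-binding protein TRIM71 (the mouse counterpart of LIN-41), the orphan nuclear receptor NR6A1, and the IGF2BP proteins, which bind mRNAs such as that of the growth factor gene Igf2. Mature let-7 was not measured by these libraries.

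The pairing that ties these genes together can be read from their sequences. The mature microRNAs are shown here (RefSeq, GRCm38.p6) because their seed, bases 2 to 8 from the 5′ end, is in capitals and is what a 3′ untranslated region (UTR) must match. Of the mouse let-7 family, let-7a to let-7g, let-7i, let-7k and miR-98 share the seed of the first and second line. MiR-125a and miR-125b, known to act on Lin28 in other settings, share that of the third.
mmu-let-7a-5p: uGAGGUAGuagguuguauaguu
mmu-miR-98-5p: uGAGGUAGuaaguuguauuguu
mmu-miR-125b-5p: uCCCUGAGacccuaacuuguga
A 7-base match to the let-7 seed, CTACCTC, was searched for on the sense strand of the longest annotated 3′ UTR of each gene (GENCODE M21, GRCm38, the assembly also called mm10). For each member the match nearest to the stop codon that is followed by A is shown with the bases before it, 30 bases in all, written 5′ to 3′ along the mRNA with the match in capitals. All 8 genes lie on the minus strand.
Lin28a chr4:134005189-134005218: ttggagtgcacagcctgttgaaCTACCTCa
Lin28b chr10:45381022-45381051: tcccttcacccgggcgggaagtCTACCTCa
Trim71 chr9:114512472-114512501: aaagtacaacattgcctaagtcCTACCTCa
Nr6a1 chr2:38727449-38727478: tccataatgttgacaaagacaaCTACCTCa
Hmga2 chr10:120364224-120364253: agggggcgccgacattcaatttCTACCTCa
Igf2bp1 chr11:95961778-95961807: aggcagtgctgtgcgaagtaaaCTACCTCa
Igf2bp2 chr16:22059473-22059502: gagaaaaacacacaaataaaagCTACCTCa
Igf2bp3 chr6:49086787-49086816: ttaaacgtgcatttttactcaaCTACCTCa

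All 8 UTRs held the 7-base match, and all 8 held it at least once in the 8-base form CTACCTCA. Among 21005 genes with an annotated 3′ UTR, 9.02% held the 7-base match, 3.06% held the 8-base form and 1.08% held at least 2 of the 7-base matches. The members are known let-7 targets, so their matches describe them and are no evidence about these cells. Nr6a1 held 8 matches, Lin28b, Trim71, Hmga2 and Igf2bp1 held 4 each, Lin28a held 2, and Igf2bp2 and Igf2bp3 held 1 each. The match to the miR-125 seed, CTCAGGG, was in the UTRs of Lin28a, Lin28b, Trim71, Nr6a1 and Igf2bp3, against 13.1% of all genes. A match is a run of letters and does not show that a site is used.

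Total counts per library ran from 5257601 to 7122093. Marker genes showed a mixture that changed with the day. The summed level of 13 cardiomyocyte genes was 6040 to 10600 CPM at D15 (CPM are counts scaled to a common library size), against 478 to 558 CPM at D5, and that of 7 fibroblast and matrix genes was 39300 to 48300 CPM at D15, against 209 to 252 CPM at D5. Within a day the cardiomyocyte sum differed between libraries, from 1510 to 3720 CPM at D8 for example. On all 6 days it was highest in the library listed first in the count table for that day and lowest in the one listed last, and the last also had the highest fibroblast and matrix sum. The labels do not say whether libraries of different days share a source. Of 12 pluripotency genes the sum was 23.2 to 29.3 CPM at D15, with Sox2, Dppa5a, Utf1 and Fgf4 at 0, against 131 to 137 CPM at D5, with Fgf4 at 0. Most of that sum came from Dnmt3b (7.70 CPM at D15 and 104 CPM at D5) and Klf4 (16.3 CPM at D15 and 22.4 CPM at D5), which other cells express too. Pou5f1, which encodes OCT4, had 0 counts over the 3 libraries at D6 and 57 at D5. The sum of 7 primitive streak and early mesoderm genes was 0.177 to 0.353 CPM at D15, with T, Eomes, Mesp1, Wnt3 and Evx1 at 0, against 25.9 to 30.3 CPM at D5. The part of this changing mixture in the levels below was not tested, and in such bulk samples fewer cells of a type and less RNA per cell cannot be told apart.

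From first to last harvest 7 of the 8 genes fell and Igf2bp2 was not called. Lin28a fell most, to 0.0278% of its D5 mean at D15, followed by Trim71 (0.232%), Lin28b (1.11%), Nr6a1 (1.73%), Hmga2 (10.5%), Igf2bp1 (15%) and Igf2bp3 (30.9%). Igf2bp2 stood at 105% of its D5 mean. In D15 against D5, 7 members were called lower (adjusted p under 0.05, edgeR quasi-likelihood test with Benjamini-Hochberg adjustment over all tested genes), where 37.7% of all genes were called lower and 40.3% higher. The D15 and D5 libraries did not overlap for these 7, where 38.8% of genes had all D15 libraries below all D5 libraries. The median log2 fold change was -4.54 over the members and 0.03 over all tested genes. The members were chosen with earlier results of these data known, so these shares and medians give a scale and test nothing. Among the 13116 genes, the fall of Lin28a ranked 1, that of Trim71 10, that of Lin28b 50 and that of Nr6a1 74. Where almost no counts remain at D15, as for Lin28a and Trim71 with 5 each, the D5 level bounds the fold. A rank among such genes therefore depends in part on the D5 level. Step by step, 4 members, Lin28a, Lin28b, Trim71 and Nr6a1, were called lower at each of the 5 steps between neighbouring harvests, which held for 42 genes, or 0.32% of those tested.

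**Figure D1:**
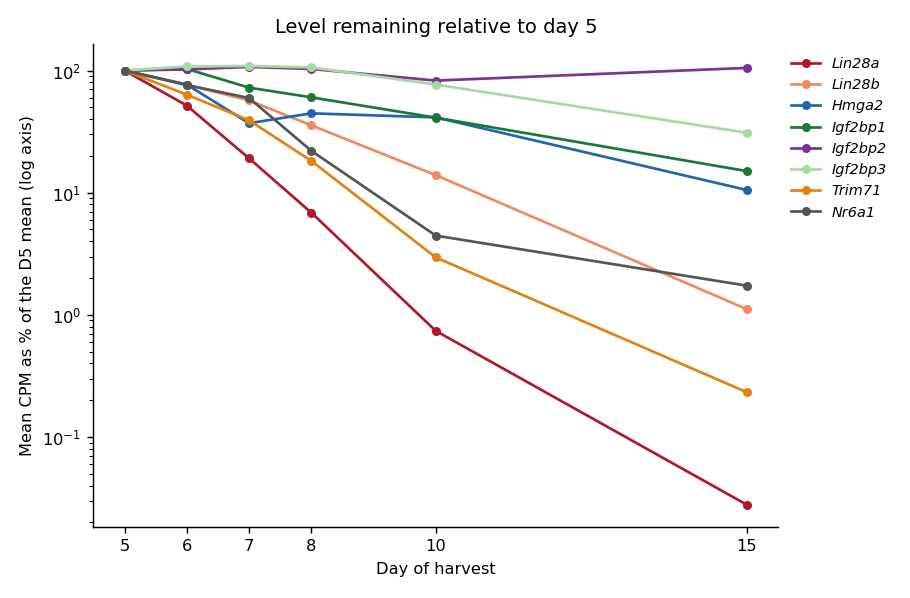
Mean level of each gene as a percentage of its own D5 mean (log axis) against the day of harvest, with 3 libraries behind each point. Lin28a falls furthest, to 0.0278% at D15, Hmga2 pauses between D7 and D10, and Igf2bp2 stays between 82.7% and 107%.

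Lin28a and Lin28b are the paralogs that block let-7 maturation. Lin28a had 1060, 1020 and 980 CPM in the D5 libraries, 521, 535 and 522 CPM at D6, and 189, 219 and 178 CPM at D7. It had 61.9, 77.3 and 70.9 CPM at D8, 7.06, 7.60 and 7.93 CPM at D10, and 0.177, 0.354 and 0.320 CPM at D15. Each day lay below all libraries of the day before it, with no overlap at any step. The D15 level rests on 5 counts in the 3 libraries together, with an exact 95% Poisson interval of 0.0925 to 0.665 CPM that covers counting error only. On the log2 scale the fold change was -0.96 ± 0.07 (SE) for D6 against D5, -1.43 ± 0.07 for D7 against D6, -1.48 ± 0.08 for D8 against D7, -3.22 ± 0.11 for D10 against D8 and -4.63 ± 0.33 for D15 against D10. The weakest of these had an adjusted p of 7.56e-12 in edgeR's test. Per day of culture these changes were -0.96, -1.43, -1.48, -1.61 and -0.93, and the differences between steps were not tested.

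Lin28b fell over the same days by smaller factors. It had 148, 137 and 129 CPM at D5, 103, 108 and 106 CPM at D6, and 74.0, 80.9 and 81.2 CPM at D7. It had 38.5, 55.8 and 53.5 CPM at D8, 20.1, 20.4 and 17.2 CPM at D10, and 1.41, 1.42 and 1.76 CPM at D15, the last from 27 counts in all. Here too no day overlapped with the day before it. D6 against D5 gave a log2 fold change of -0.39 ± 0.09 (adjusted p = 0.00143), and D15 against D10 one of -3.63 ± 0.22 (adjusted p = 2.35e-14). Over the whole course it was -6.47 ± 0.17, beside -11.71 ± 0.16 for Lin28a. At so few D15 counts these SEs are too small, and the Poisson interval of Lin28a above is far wider.

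**Figure D2:**
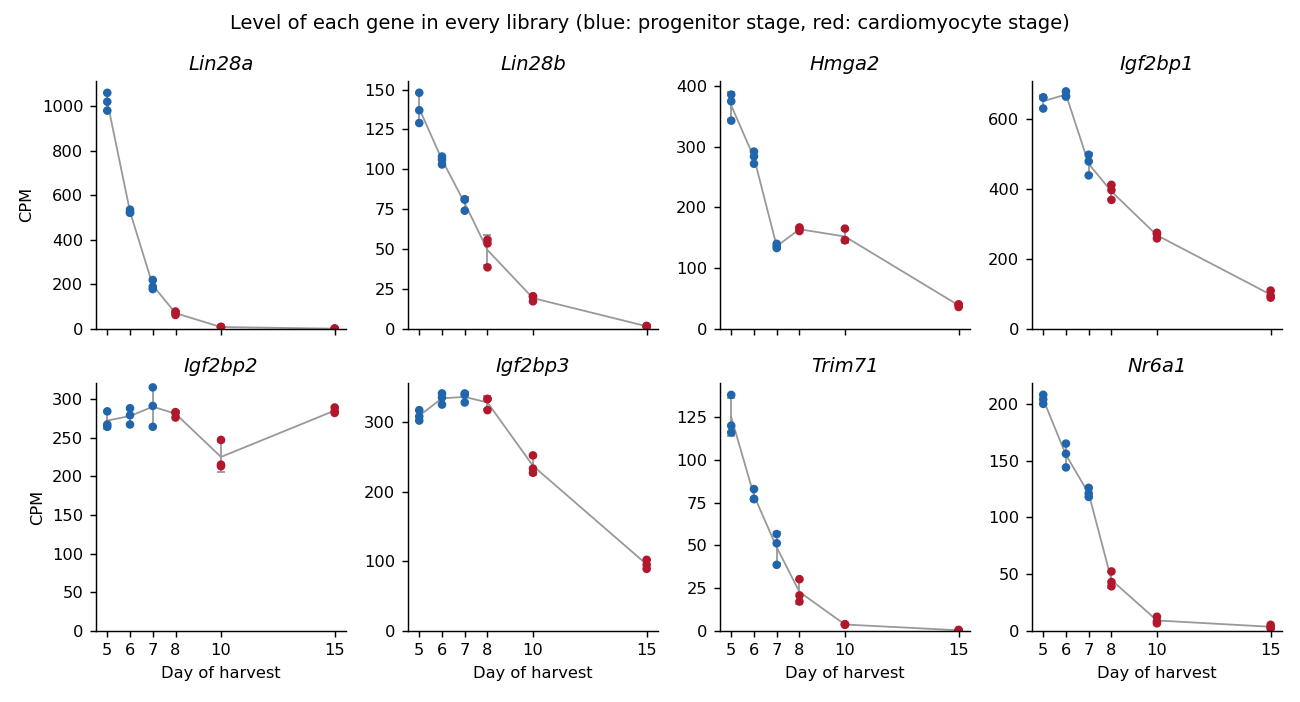
Level of each of the 8 genes (CPM) in every library against the day of harvest, with points for libraries, lines through the day means and bars of 1 SD (n = 3 a day). Points of D5, D6 and D7 are blue (progenitor stage) and those of D8, D10 and D15 are red (cardiomyocyte stage). Lin28a, Lin28b, Trim71 and Nr6a1 descend at every harvest, and the Igf2bp2 points of D15 lie within the range of earlier days.

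The balance between the paralogs was read within each library as the log2 ratio of Lin28a to Lin28b counts, after adding 2 to each. The day means were 2.88, 2.31, 1.30, 0.52, -1.31 and -1.59 for D5, D6, D7, D8, D10 and D15. The D15 libraries had -1.74, -1.32 and -1.70, against 2.83, 2.89 and 2.93 in the D5 libraries, with no overlap. The difference of -4.47 gave p = 0.1 in a two-sided exact permutation test, which is the smallest p that 3 libraries against 3 allow. With 2 added the D15 and D10 libraries overlapped in this ratio, which at D15 rests on Lin28a counts of 1, 2 and 2. With the few D15 counts both this overlap and the size of the difference between D15 and D5 depended on the added count. Adding 0.5 in place of 2 gave a difference of -5.04. Per kilobase of exon, Lin28a stood at 255 ± 9.95 CPM per kb at D5 (SD, n = 3) and Lin28b at 25.6 ± 1.82 CPM per kb. At D10 the order of their levels was turned, with 1.88 ± 0.110 CPM per kb for Lin28a and 3.56 ± 0.325 CPM per kb for Lin28b.

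Trim71, whose worm counterpart lin-41 is a classic let-7 target, fell at every step. It had 120, 116 and 138 CPM at D5, 77.2, 77.0 and 82.9 CPM at D6, and 38.6, 51.2 and 56.6 CPM at D7. It had 17.1, 30.2 and 20.7 CPM at D8, 3.53, 3.63 and 3.87 CPM at D10, and 0.177, 0.532 and 0.160 CPM at D15. No day overlapped with the one before, and the D15 level again rests on 5 counts, with a Poisson interval of 0.0925 to 0.665 CPM. Its log2 fold change was -0.66 ± 0.13 for D6 against D5, -0.70 ± 0.14 for D7 against D6, -1.11 ± 0.15 for D8 against D7, -2.62 ± 0.23 for D10 against D8 and -3.60 ± 0.60 for D15 against D10. The weakest of these adjusted p-values was 0.00047, for D7 against D6. In D15 against D5 it was -8.68 ± 0.30 (adjusted p = 1.65e-17), with an SE that is too small at 5 counts.

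Nr6a1, also called germ cell nuclear factor, is a nuclear receptor known for shutting off Pou5f1 in early development. It had 208, 204 and 200 CPM at D5, 156, 144 and 165 CPM at D6, and 118, 121 and 126 CPM at D7. It had 39.2, 43.0 and 52.3 CPM at D8, 6.60, 8.29 and 12.4 CPM at D10, and 3.18, 2.13 and 5.28 CPM at D15. Each day lay below the day before without overlap. Its steepest steps per day were D8 against D7, at a log2 fold change of -1.44 ± 0.12 (adjusted p = 9.04e-09), and D10 against D8, at -2.32 ± 0.17 over 2 days (adjusted p = 3.69e-10). D7 against D6 was a smaller step of -0.35 ± 0.11 (adjusted p = 0.0181), and its call was lost when library 1 or 3 of D6 or library 1 or 2 of D7 was left out, at adjusted p of 0.055 to 0.0811. Over the whole course its log2 fold change was -5.82 ± 0.17 (adjusted p = 2.15e-18). That SE is narrow beside the spread of its D15 libraries, which held 12 to 33 counts, and may be too small. Germ cell genes were near 0 on all days, with Dppa3 at 0 and a sum over 3 genes of 0.320 to 1.06 CPM at D15, against 1.36 to 1.89 CPM at D5.

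On every day but D5 the library with the highest cardiomyocyte sum had the highest level of none of these 4 genes. At D7 it had the lowest level of Lin28b (74.0 CPM), Trim71 (38.6 CPM) and Nr6a1 (118 CPM) and a middle level of Lin28a (189 CPM). The D8 library with the highest sum, 3720 CPM, had the lowest D8 level of Lin28a (61.9 CPM), Lin28b (38.5 CPM), Trim71 (17.1 CPM) and Nr6a1 (39.2 CPM). The D5 library with the highest sum, 558 CPM, had the highest D5 level of Lin28a (1060 CPM), Lin28b (148 CPM) and Nr6a1 (208 CPM) and a middle level of Trim71 (120 CPM). The library with the lowest sum did not always have the highest levels. At D8, at a sum of 1510 CPM, it had middle levels of Lin28a (70.9 CPM), Lin28b (53.5 CPM) and Trim71 (20.7 CPM). Its Nr6a1 level (52.3 CPM) was the highest of D8. At D7 it had the lowest Lin28a (178 CPM) and the highest Lin28b, Trim71 and Nr6a1. At D10 it had the lowest Lin28b (17.2 CPM) and the highest Lin28a, Trim71 and Nr6a1. The D8 libraries of these 4 genes overlapped with neither those of D7 nor those of D10. Whether the share of cardiomyocytes plays a part was not tested.

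Hmga2 encodes an architectural chromatin protein of embryonic and proliferating cells, and its fall was broken by a pause. It had 386, 375 and 343 CPM at D5, 292, 272 and 284 CPM at D6, and 140, 136 and 133 CPM at D7. It had 167, 165 and 161 CPM at D8, 165, 146 and 146 CPM at D10, and 40.2, 35.8 and 39.5 CPM at D15. All D8 libraries were above all D7 libraries, and the D10 libraries overlapped with those of D8. The log2 fold change was -1.05 ± 0.06 for D7 against D6 (adjusted p = 8.14e-13), 0.27 ± 0.07 for D8 against D7 (adjusted p = 0.00286), -0.11 ± 0.07 for D10 against D8 (adjusted p = 0.207) and -1.98 ± 0.07 for D15 against D10 (adjusted p = 5.33e-19). D15 against D5 came to -3.26 ± 0.07. Hmga2 was the single member called higher in D8 against D7. A pseudogene copy, Hmga2-ps1, has a row of its own with 15 to 51 counts a day, where Hmga2 had 677 to 7856.

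The 3 Igf2bp genes encode related proteins that bind and stabilise mRNAs, and they parted from each other. Igf2bp1 had 661, 629 and 660 CPM at D5, 678, 665 and 663 CPM at D6, and 438, 497 and 478 CPM at D7. It had 368, 396 and 411 CPM at D8, 258, 270 and 274 CPM at D10, and 94.6, 109 and 88.7 CPM at D15. It was not called in D6 against D5 (log2 fold change 0.04 ± 0.06, adjusted p = 0.664) and fell at each later step without overlap, with log2 fold changes of -0.51 ± 0.07 for D7 against D6, -0.27 ± 0.07 for D8 against D7, -0.55 ± 0.07 for D10 against D8 and -1.46 ± 0.07 for D15 against D10. The symbol Igf2bp1 is also an older name of B4galnt2, which had its own row with 7 counts at D15 and 7 at D5.

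Igf2bp3 was called at none of the steps up to D8 and then fell. It had 317, 308 and 302 CPM at D5, 335, 341 and 325 CPM at D6, and 339, 341 and 328 CPM at D7. It had 317, 333 and 333 CPM at D8, 233, 227 and 252 CPM at D10, and 89.0, 95 and 102 CPM at D15. The first 3 steps were not called, at adjusted p of 0.154, 0.928 and 0.707. The log2 fold change was -0.47 ± 0.06 for D10 against D8 (adjusted p = 4.58e-07) and -1.31 ± 0.06 for D15 against D10 (adjusted p = 1.93e-16). Of its exonic bases 35.2% overlap Malsu1 on the opposite strand, and whether the counting used strand was not given in the sources used here. Malsu1, listed under its older symbol 2410003K15Rik, had 156 counts at D15 and 199 at D5, where Igf2bp3 had 1679 at D15 and 6602 at D5.

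Igf2bp2 dipped at D10 and stood near its D5 level at D15. It had 264, 267 and 284 CPM at D5, 267, 279 and 288 CPM at D6, and 264, 291 and 315 CPM at D7. It had 276, 282 and 283 CPM at D8, 247, 215 and 213 CPM at D10, and 284, 282 and 289 CPM at D15. D10 was the low point, below all libraries of D8 and of D15. The log2 fold change was -0.32 ± 0.07 for D10 against D8 (adjusted p = 0.000455), 0.34 ± 0.07 for D15 against D10 (adjusted p = 8.77e-05) and 0.07 ± 0.07 for D15 against D5 (adjusted p = 0.338), where the D15 and D5 libraries overlapped.

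Within the length-scaled sum of the 3 Igf2bp genes, Igf2bp2 took a growing share. It made up 68.8%, 66.6% and 67.6% of the sum in the D15 libraries, against 30.1%, 31.1% and 32.2% in the D5 libraries. The Igf2bp1 share was 11.2% ± 1.21 at D15, against 35.9% ± 0.477 at D5, and the Igf2bp3 share was 21.1% ± 1.12 at D15, against 33.0% ± 0.992 at D5 (SD, n = 3). None of the 3 shares overlapped between these days, and each gave p = 0.1 in a two-sided exact permutation test, the smallest possible, and 0.1 after adjustment over the 4 balances compared. The shares are parts of 1 sum, so they are not independent of each other.

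**Figure D3:**
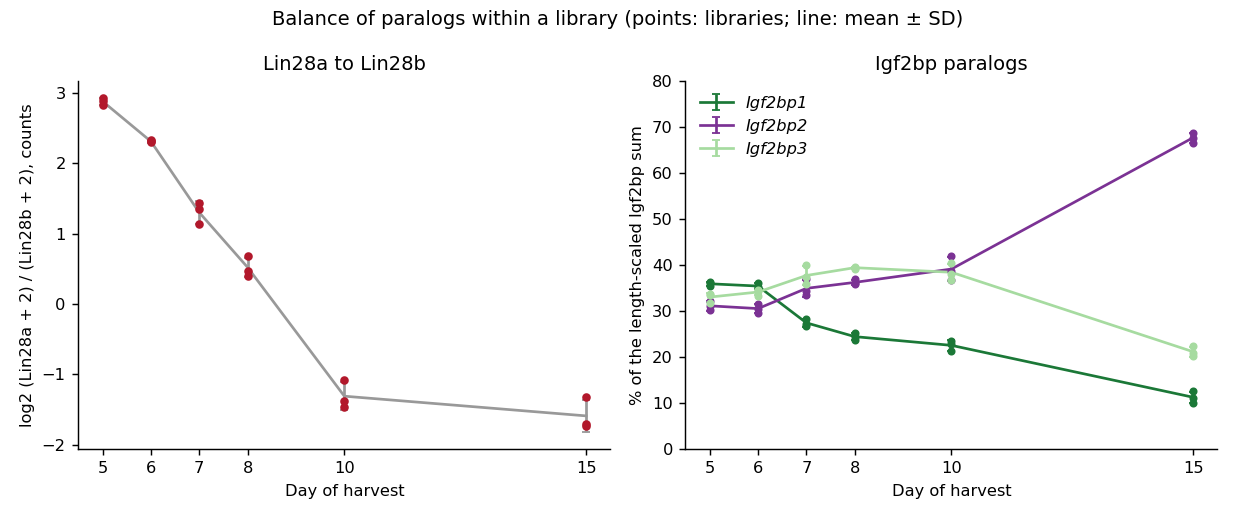
Left, log2 ratio of Lin28a to Lin28b counts (2 added to each) against the day of harvest. Right, percentage of the length-scaled Igf2bp sum held by each of its 3 genes. Points are libraries and lines join day means with bars of 1 SD (n = 3). The mean Lin28 ratio descends at each harvest, to -1.59 at D15, and the Igf2bp2 share is highest at D15, at 67.7%.

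The set of members called changed from step to step. In D6 against D5, Lin28a, Lin28b, Trim71, Nr6a1 and Hmga2 were called lower, 5 of 8, where 16.4% of genes were called lower. In D7 against D6 Igf2bp1 joined them, giving 6 of 8, where 15.3% of genes were called lower. In D8 against D7 there were 5 called lower, where 11.6% of genes were, and 1 higher (Hmga2), where 12.6% of genes were. In D10 against D8 all members but Hmga2 were called lower, 7 of 8, where 13.9% of genes were. In D15 against D10 all but Igf2bp2 were called lower, 7 of 8, where 24.4% of genes were, and Igf2bp2 was called higher, as were 26.4% of genes. The median log2 fold change of the members at the 5 steps was -0.38, -0.47, -0.47, -0.95 and -1.72, and that of all tested genes lay between -0.01 and 0.01. The last 2 steps span 2 and 5 days, so sizes of steps are not per day. Neighbouring steps share a day, and their values are given side by side for that reason.

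**Figure D4:**
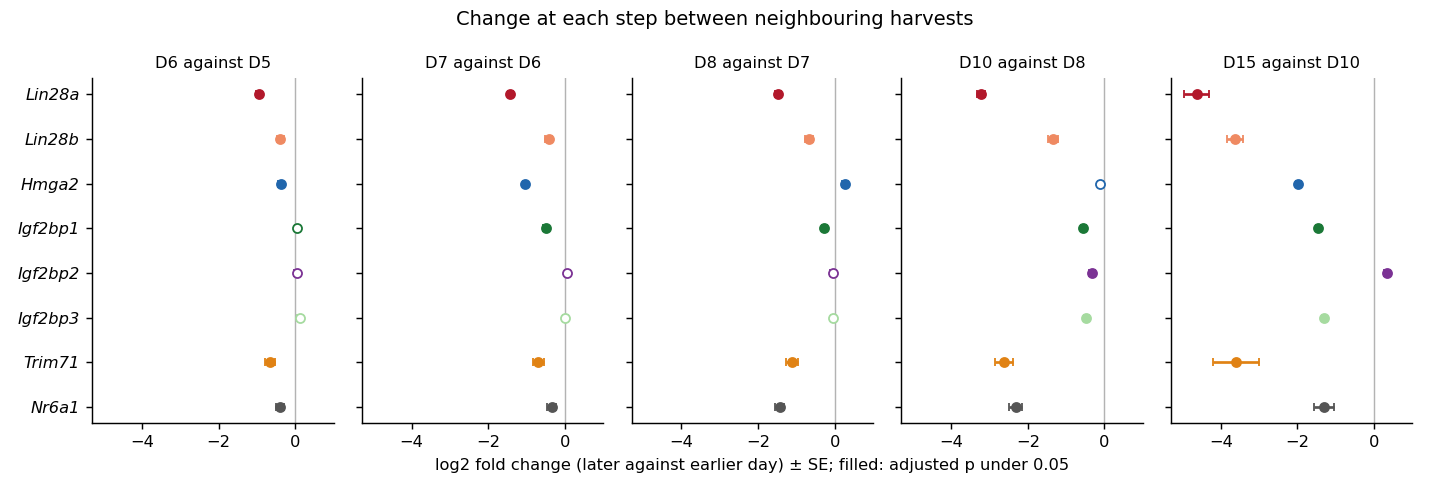
Log2 fold change ± SE of each gene at the 5 steps between neighbouring harvests, later against earlier day, with filled points for an adjusted p under 0.05. Hmga2 at D8 against D7 and Igf2bp2 at D15 against D10 are the filled points right of 0.

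The named stages were compared as averages over their 3 days each. In the cardiomyocyte stage against the progenitor stage all 8 members were called lower, where 37.8% of genes were. The log2 fold change was -6.44 ± 0.07 for Lin28a, -4.74 ± 0.14 for Trim71, -3.80 ± 0.09 for Nr6a1, -3.20 ± 0.08 for Lin28b, -1.44 ± 0.04 for Igf2bp1, -1.29 ± 0.04 for Hmga2 and -0.74 ± 0.03 for Igf2bp3. Because these averages include the few D15 counts, the SEs of Lin28a, Trim71 and Lin28b are too small, and that of Nr6a1 may be. Igf2bp2 was at -0.10 ± 0.04 (adjusted p = 0.025), and its call was lost with the size factors of DESeq2 in edgeR (adjusted p = 0.0837) and in DESeq2 itself (adjusted p = 0.0916). The F test across days called all 8, as it did 88.9% of genes.

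By level per kilobase of exon, Lin28a held place 7 of 8 at D15, against place 1 at D5, while Trim71 was last on both days and Igf2bp1 in place 3. At D5 Lin28a led with 255 ± 9.95 CPM per kb, ahead of Hmga2 (96.7 ± 5.93), Igf2bp1 (77.6 ± 2.22), Igf2bp3 (71.2 ± 1.70), Igf2bp2 (67.2 ± 2.73), Nr6a1 (31.6 ± 0.582), Lin28b (25.6 ± 1.82) and Trim71 (13.4 ± 1.21). Of these neighbours, Igf2bp3 and Igf2bp2 overlapped and the others did not. The place of Igf2bp3 depends on how reads in the bases it shares with Malsu1 were counted. At D15 Igf2bp2 led with 70.5 ± 0.888 CPM per kb, ahead of Igf2bp3 (22 ± 1.53), Igf2bp1 (11.6 ± 1.25), Hmga2 (10.1 ± 0.626), Nr6a1 (0.546 ± 0.249), Lin28b (0.283 ± 0.0369), Lin28a (0.0710 ± 0.0236) and Trim71 (0.0310 ± 0.0225). At D15 Lin28a and Trim71 overlapped. At D7, midway, the first place was shared by the overlapping Igf2bp3 (77.3 ± 1.64 CPM per kb) and Igf2bp2 (71.7 ± 6.20 CPM per kb), while Lin28a stood at 48.8 ± 5.29 CPM per kb, overlapping with Igf2bp1 (56.2 ± 3.61 CPM per kb).

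Other tested genes whose 6 day means ran most like those of a member were ranked by the root mean square (RMS) difference in log2 CPM after centring each gene, over 12231 genes. Genes with a symbol of Gm and a number, or one ending in Rik, were left out of this ranking. This describes likeness over 6 days and carries no test. Changes were not scaled to a common size, so genes that change little lie close together and distances of different members are not comparable. Nearest to Lin28a was Prtg, which encodes the immunoglobulin-family receptor protogenin (RMS 0.44), which had 1.02 CPM at D15 and 1460 CPM at D5. Sall4, a transcription factor of stem cells (0.77), Trim71 (1.02), the SMAD partner Foxh1 (1.09) and the homeobox gene Msx1 (1.16) came next. Nearest to Trim71 were Sall4 (0.35), the apelin receptor gene Aplnr (0.53) and Arid3b (0.56). Lin28b lay nearest to the FGF receptor gene Fgfr3 (0.17), Arid3b (0.23) and the heart and mesoderm factor gene Hand1 (0.24). Nr6a1 lay nearest to Sall1 (0.34), Cecr2 (0.40) and Slc35f2 (0.42), and Hmga2 to Amot (0.19), AI504432 (0.22) and Pnma2 (0.22). Igf2bp1 lay nearest to the transcriptional repressor gene Hic2 (0.07), whose 3′ UTR holds 4 let-7 matches, then AK129341 (0.14) and Pak1 (0.16). Igf2bp3 lay nearest to Thbs3 (0.07), Mex3a (0.10) and L3mbtl3 (0.10), and Igf2bp2 to Ctnna1 (0.04), Ddi2 (0.05) and Gpx1 (0.05). Among the members themselves Hmga2 and Igf2bp1 were the closest pair (0.33), ahead of Igf2bp1 and Igf2bp3 (0.40), and Lin28a and Igf2bp2 the farthest (3.68). Even the closest pair differed in course, with log2 fold changes in D8 against D7 of 0.27 for Hmga2 and -0.27 for Igf2bp1.

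The machinery that makes let-7 or carries out its block by LIN28 mostly fell as well. The genes were listed with earlier results of these data known, so their share beside that of all genes describes the list and tests nothing. Of 18 such genes, all tested, 13 were called lower and 2 higher in D15 against D5, where 37.7% of all genes were called lower and 40.3% higher, with a median log2 fold change of -0.65 beside 0.03 over all genes. Drosha, the nuclear enzyme that cuts primary microRNA transcripts, had 86.9 ± 4.47 CPM at D15 and 245 ± 10.5 CPM at D5, a log2 fold change of -1.50 ± 0.07 (adjusted p = 3.53e-18). The exporter gene Xpo5 was at -1.01 ± 0.07, Dicer1, which makes the mature microRNA, at -0.72 ± 0.07, and Tut4 (listed as Zcchc11), the terminal uridylyl transferase that LIN28A recruits to let-7 precursors, at -0.70 ± 0.07. Both exceptions were named after their values were seen, and they are Tut7 (listed as Zcchc6), a related transferase, at 0.76 ± 0.08 (adjusted p = 4.13e-10), and the Argonaute gene Ago3 (listed as Eif2c3), at 1.41 ± 0.22 (adjusted p = 1.59e-06).

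Precursor genes of let-7 and miR-125 could not be followed in these libraries. Their 15 rows summed to 21 to 39 counts a day and none had enough counts to be tested. Poly(A) libraries hold unprocessed transcripts at most, so these rows say nothing of mature let-7.

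Other known let-7 targets mostly fell too. Of 26 listed, 24 were tested, and 16 were called lower and 2 higher in D15 against D5, beside the same 37.7% and 40.3% of all genes. The median was -0.81, beside 0.03 over all genes. This list too was chosen with earlier results of these data known, so these shares describe it and test nothing. Prtg was at -10.45 ± 0.15 and the DNA-binding factor genes Arid3b and Arid3a at -6.38 ± 0.10 and -2.75 ± 0.10, while Fignl2, a gene with 3 let-7 matches, was at -3.08 ± 0.09, each with an adjusted p of at most 7.88e-21. Called higher were Bach1 (0.72 ± 0.07, adjusted p = 1.07e-10), a repressor of heme oxygenase, and Igdcc4 (0.36 ± 0.14, adjusted p = 0.0224), both named after their values were seen. The 16 tested genes of this list with at least 1 match in the UTR had a median of -0.84, and the 8 without one had -0.56.

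Of the 13116 tested genes 11642 had an annotated 3′ UTR under the same symbol. These, without the members, were grouped by their number of 7-base let-7 matches. Genes listed under older symbols were left out, such as Ago2 (listed as Eif2c2), with 3 matches and a log2 fold change of 0.07 ± 0.15 in D15 against D5. In D15 against D5 the median log2 fold change was 0.04 for 10380 genes with none, 0.05 for 1098 genes with 1, -0.10 for 138 genes with 2 and -0.28 for 18 genes with 3 or more. Of those 18 genes 50.0% were called lower and 16.7% higher, and of the genes with none 37.8% were called lower and 41.2% higher. The group with 3 or more is small. With the shorter 6-base match TACCTC it held 225 genes, with a median of -0.24, 48.0% called lower, 30.7% higher and a median UTR of 4747 bases. Medians by 6-base matches were 0.03 for none, 0.08 for 1 and 0.09 for 2, with 38.0%, 36.5% and 36.5% called lower. UTR length moved with the number of 7-base matches, with a median of 4364 bases for 3 or more matches, against 1138 bases for none, and its part was not tested. Within the members Igf2bp2 and Igf2bp3, with 1 match each, had the smallest changes, while Lin28a with 2 matches fell more than Nr6a1 with 8.

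**Figure D5:**
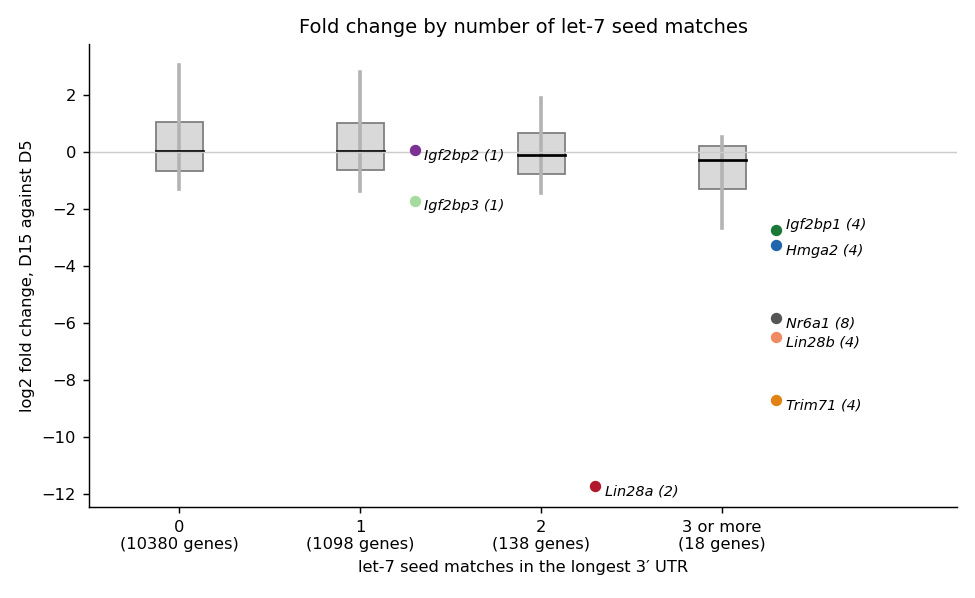
Log2 fold change in D15 against D5 by number of 7-base let-7 matches in the longest 3′ UTR. Boxes span the 25th to 75th percentile of tested genes without the members, with a line at the median and grey bars from the 10th to the 90th percentile, and coloured points are the members with their number of matches in brackets. Medians go down to -0.28 in the group with 3 or more, and 5 of the 8 members lie in that group.

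The IGF2 axis, made up of the growth factor gene, its imprinted neighbour H19, the receptors and the signalling adaptors, held calls in both directions, as all genes did. Of 7 genes, all tested, 2 were called lower and 4 higher in D15 against D5, where 37.7% of all genes were called lower and 40.3% higher. The median was 0.65, beside 0.03 over all genes. Igf2 itself had 26800 ± 2390 CPM at D15 and 5100 ± 22.2 CPM at D5, a log2 fold change of 2.40 ± 0.06 (adjusted p = 9.18e-25), and H19, a noncoding RNA known to bind let-7, was at 1.43 ± 0.05 (adjusted p = 8.52e-20). The clearance receptor gene Igf2r was at 0.70 ± 0.06 and the signalling receptor gene Igf1r at -0.92 ± 0.07. Over the same comparison Igf2bp1 and Igf2bp3 were at -2.74 ± 0.07 and -1.70 ± 0.06.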

How the data were processed

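The values are raw counts per gene, which the authors deposited, and groups come from the labels. Per the labels' protocols, RNA of 5x10E5 cells a sample was made into libraries with a TruSeq RNA v2 kit and read on a HiSeq4000 as single ends of 50 bases. STAR and mm10 are named in the submitters' processing notes, while versions, counting tool and annotation are not given in the sources used here. Of the table's columns 18 were matched to days by name, and 3 that matched no sample were left out. Libraries of a day were compared as possible copies on genes with at least 20 counts, and none agreed within sampling noise (chi-square over degrees of freedom 2.206 to 9.232).

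The members and gene lists were chosen with earlier results of these data known. EdgeR 4.0.16 (R 4.3.3) fitted all 18 libraries with a mean per day after filterByExpr (minimum count 10) and TMM scaling, with robust quasi-likelihood F tests on 12 residual degrees of freedom. Benjamini-Hochberg adjustment ran over 13116 genes, and an adjusted p under 0.05 was a call. The biological coefficient of variation was 8.27%. SE is the unshrunken log2 fold change over the square root of F. It understates the error where a day has few counts, such as D15 for Lin28a, Trim71 and Lin28b, and may do so for Nr6a1. CPM used TMM-scaled library sizes, and levels per kb divide by the exonic bases of the gene. Alternatives were other scalings and filters, DESeq2 1.42.0, limma-voom (limma 3.58.1), fits of the compared days alone and each library left out in turn. The fit was tested on simulated data in which the unchanged genes were flat over all days, unlike these data. In D15 against D5 it recovered 62.7% of 1.5-fold and 92.4% of 4-fold changes, with 3.14% of calls false. In D8 against D7 it recovered 67.2% and 95.5%, with 6.86% of calls false.

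All 8 members were named in every comparison. Of each other list, up to 4 genes with the smallest p across days were named, and 5 genes nearest to Lin28a and 3 nearest to each other member. Exon overlaps and 3′ UTRs came from GENCODE M21. Of the 50-base stretches of each gene 81.9% were unique in Igf2bp3 and at least 95.3% in the other members. Besides Igf2bp3, overlaps with other genes took 5.86% of exonic bases in Lin28a, 3.67% in Hmga2, 1.45% in Trim71 and at most 1.10% in Igf2bp1. Python 3.11.15 with pandas 2.3.3 and scipy 1.17.1 made the tables, and matplotlib 3.10.9 the figures.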

Additional observations from a re-analysis of the deposited data

How the results depend on the processing

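No paired analysis was possible because the table's columns carry no replicate number and their order is not a label. Lin28a, Lin28b, Trim71, Hmga2, Igf2bp1 and Igf2bp3 kept every call they had in the comparisons of days and stages under all alternatives tried. The log2 fold change in D15 against D5 ranged from -11.88 to -11.46 for Lin28a, from -9.38 to -8.38 for Trim71, from -6.59 to -6.42 for Lin28b, from -6.26 to -5.57 for Nr6a1 and from 0.04 to 0.10 for Igf2bp2. Nr6a1 lost its call in D7 against D6 without library 1 or 3 of D6 or library 1 or 2 of D7 (log2 fold change -0.40 to -0.31 over all alternatives). Igf2bp2 lost its call between the stages with DESeq2's size factors (-0.07), in DESeq2 (-0.07) and without library 3 of D5, D6 or D7 or library 2 or 3 of D10. Uncalled values near 0 changed sign when a library was left out. Igf2bp2 ranged from -0.002 to 0.12 in D7 against D6 and from -0.11 to 0.01 in D8 against D7. Igf2bp3 ranged from -0.01 to 0.03 in D7 against D6, with -0.00096 without library 2 of D7. The other let-7 targets called higher in D15 against D5 numbered 1 to 2 when a library was left out, with 1 without library 3 of D15. The Lin28a to Lin28b ratio changed by -5.04 with an added count of 0.5. The depth limits the D15 levels of Lin28a and Trim71, at 5 counts each.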
